A study of Mus musculus with 2 samples.

Results

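Fibroblast growth factor (FGF) signalling was examined through 10 genes: the ligands Fgf10, Fgf7 and Fgf9, the receptors Fgfr1 and Fgfr2, and 5 genes that cells switch on when the pathway is active, Spry1, Spry2, Etv4, Etv5 and Dusp6. The members were the rows of the deposited count matrices whose symbol matched one of these names, and all 10 were found among 27998 genes. The data are droplet single-cell RNA counts from the pancreas of 1 control and 1 knockout-titled mouse embryo, both C57BL/6 and both at embryonic day 13.5. The series' design text writes the mutant as Dpy30∆P, and the sources used here name no allele or Cre driver for either embryo.

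FGF ligands are secreted proteins that bind receptor tyrosine kinases on neighbouring cells. The receptors pass the signal through the Ras and ERK kinases, which induce the ETS factors Etv4 and Etv5 and, as a brake on the same route, the Sprouty proteins and the ERK phosphatase Dusp6. In the embryonic pancreas, Fgf10 from the mesenchyme acts on Fgfr2 of the epithelium and is known for keeping progenitor cells dividing. Other receptor tyrosine kinases induce the same response genes, so their level is not a readout of FGF alone.

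Cells were grouped into 6 classes. Tip-like cells carry acinar markers such as Cpa1 and Ptf1a, trunk-like cells carry ductal markers such as Spp1 and Sox9, and epithelial cells with at least 5 UMIs (unique molecular identifiers, 1 per captured transcript) of Neurog3 form the endocrine progenitor class. Mesenchyme-like cells, mesothelium-like cells (the surface lining of the organ) and endothelium-like cells (blood vessel lining) make up the rest, and the short names tip, trunk, Neurog3 class, mesenchyme, mesothelium and endothelium stand for these classes. The control library held 170 tip, 317 trunk, 144 Neurog3, 2581 mesenchyme, 254 mesothelium and 27 endothelium cells. The knockout-labelled library held 189, 164, 61, 2091, 252 and 32 cells of these classes in the same order. In their own class, 12 of 13 tip markers and all markers of the other 5 lists were detected. As the classes were drawn with these lists, this does not check their names. A single UMI in a class counted as detection, and mesenchyme also had 12 of the 13 tip markers.

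The libraries held 3749 and 2938 cells after filtering, from 32702089 and 28033433 deposited UMIs, with medians of 6825.5 and 8049 UMIs per barcode. Dpy30 was at 219 CPM (UMIs of the gene scaled to a class total of 1000000) in control trunk cells and at 254 CPM in knockout-labelled trunk cells, and at 249 and 269 CPM in tip cells. The sources used here do not give where the deletion lies relative to the counted 3' end, so this transcript count does not check the label. The embryos also differed in sex, with 2 and 56329 UMIs of Xist and 1753 and 0 UMIs of Ddx3y, and genotype, sex and library cannot be told apart. With 1 library per condition, the conditions are described and not tested. The intervals given are exact at the 95% level, Poisson for levels and Clopper-Pearson for shares, and they cover counting error only. The libraries shared 22 cell barcodes. Among mesenchymal clusters, cluster 2 (559 control and 45 knockout-labelled cells) and clusters 3 (65 and 527) and 13 (34 and 168) were split unevenly. So were tip clusters 7 (2 and 80) and 11 (10 and 33). Xist and Tsix were among the leading genes of cluster 3 and Tsix among those of cluster 13. Sex genes were not left out of the clustering, and their part in the uneven splits was not tested. The Spry1 and Fgfr2 differences in mesenchyme and that of Ptf1a in tip are also given without the uneven clusters. Other differences in mesenchyme and tip are given with them only.

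Fgf9 was the ligand with the most transcripts, and they lay in the mesothelium. Fgf9 (chromosome 14, 58070671 to 58112854, RefSeq, GRCm38.p6) signals mainly to receptor forms of the mesenchyme. The control mesothelium held 235 Fgf9 UMIs, or 102 CPM (89.3 to 116). The knockout-labelled mesothelium held 198, or 82.5 CPM (71.4 to 94.9). An Fgf9 UMI was found in 53.1% of the 254 and 50.0% of the 252 mesothelial cells, about every other cell of the layer. Cells thinned to 3000 UMIs each, so that deep and shallow cells compare, had one in 27.1% (21.7 to 33.0) and 21.1% (16.2 to 26.8) of cases. Immune cells, which had a similar depth (medians of 8739 and 10469 UMIs against 8376.5 and 9064 in the mesothelium), had 0 UMIs in either library.

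The second tier of Fgf9 was epithelial and low. Trunk cells had 5.02 and 3.54 CPM, the Neurog3 class 6.75 and 2.99 CPM and tip cells 1.77 and 2.34 CPM in the control and knockout-labelled libraries. Epithelial cells outside the 6 classes had 7.74 CPM (3.34 to 15.2) and 6.48 CPM (1.76 to 16.6), from 8 and 4 UMIs. The intervals of these, trunk and Neurog3 cells overlapped, so their order is not resolved. Mesenchyme had 4 and 6 UMIs in 2581 and 2091 cells, which is 0.238 and 0.378 CPM. Endothelium had 0 UMIs, which allows up to 10.7 and 8.48 CPM. Mesothelium thus held 82.5% (77.5 to 86.7) of all Fgf9 UMIs of the control library and 86.8% (81.8 to 90.9) of those of the knockout-labelled library, although it held 7.50% and 8.98% of all UMIs.

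By one measure Fgf9 was the most class-restricted of the members. A gene was called restricted where the same class was highest in both libraries and at least 4-fold above the next class in each, on the (CPM + 5) scale. This held for 3.94% of 9602 genes tested, and among the members it held for Fgf9 alone, at 9.10-fold and 10.2-fold over the next class. The other 6 members assessed also had the same highest class in both libraries, as did 63.2% of genes. The level of Fgf9 in mesothelium was 0.810 times the control value in the knockout-labelled library (0.667 to 0.982), a difference under 1.5-fold. Across 20 clusters, the genes whose level ran most like that of Fgf9 were Ptgds, a prostaglandin D synthase (Pearson r = 0.94), and Tm4sf5 (r = 0.92), as a description of clusters that share libraries.

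**Figure D1:**
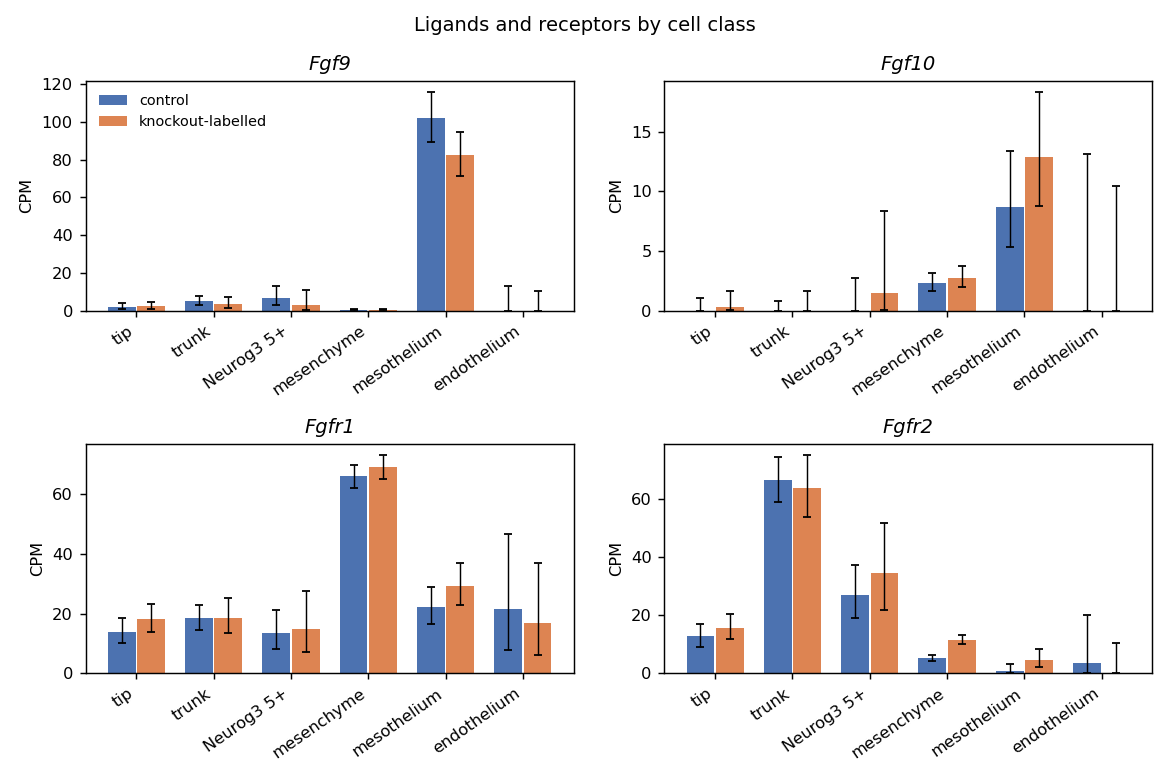
Level of 2 ligands and 2 receptors in CPM (vertical axes, each with its own scale) by cell class (horizontal axes) in the control and knockout-labelled libraries. Bars are sums over cells and whiskers are exact 95% Poisson intervals; Fgf9 and Fgf10 peak in mesothelium, Fgfr1 in mesenchyme and Fgfr2 in trunk.

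Fgf10 and Fgf7, which both bind the epithelial form of Fgfr2, were far less abundant. Fgf10 (chromosome 13, 118714699 to 118792573) came to 59 UMIs over all control cells and 78 over all knockout-labelled cells. In mesenchyme, the class known for it, there were 39 and 44 UMIs, or 2.32 CPM (1.65 to 3.17) and 2.77 CPM (2.01 to 3.72). In mesothelium there were 20 and 31 UMIs, or 8.68 CPM (5.30 to 13.4) and 12.9 CPM (8.78 to 18.3). The 2 mesothelial intervals lay above those of the mesenchyme in both libraries. Because mesenchyme cells were so many, they still held 66.1% and 56.4% of Fgf10 UMIs, against 33.9% and 39.7% in mesothelium.

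Fgf10 was close to absent from the epithelium. Tip, trunk and Neurog3 cells together had 0 UMIs in the control library, and the limit that 0 counts allow was 0.885 CPM in tip and 0.684 CPM in trunk. The knockout-labelled library had 1 UMI in tip, 0 in trunk and 1 in the Neurog3 class. Within the mesenchyme, Fgf10 was highest in cluster 0 (led by Rgcc, Rgs4, Zcchc5 and Osr2), at 4.84 CPM (2.76 to 7.86) and 7.05 CPM (3.38 to 13.0). The other clusters had 0 to 8 UMIs per library. Those intervals overlapped the ones of cluster 4 (3.48 and 4.39 CPM), so the order of clusters is not resolved. Fgf7 (chromosome 2, 126034658 to 126091185) came to 3 control and 5 knockout-labelled UMIs over all cells, 3 of them in mesenchyme in each case. At this depth no class can be named as its source.

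Of 22 ligands of the FGF list, all 22 had a row. After Fgf9, the highest class levels were those of Fgf13, Fgf5 and Fgf10, each in mesothelium. Fgf13, an intracellular family member that is not secreted, was at 35.6 and 33.8 CPM in mesothelium. Fgf5 was at 31.7 and 34.6 CPM there, and Fgf18, below Fgf10, at 6.94 and 8.34 CPM. In mesenchyme, the class with the most cells, Fgf12 had 90 and 75 UMIs and Fgf1 83 and 75, each near 5 CPM. Fgf5 and Fgf13 met the same restriction rule as Fgf9 with mesothelium as their class. So did Sulf1, a sulfatase that trims the heparan sulfate needed for FGF binding, at 236 and 234 CPM. The count minimum was met by 1 ligand in trunk, 6 in mesenchyme and 6 in mesothelium, and 0 of these differed by 1.5-fold between the libraries.

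Receptors divided between the compartments. Fgfr1 (chromosome 8, 25518759 to 25575718), the main FGF receptor of mesenchymal cells, was highest in mesenchyme, with 1110 control and 1099 knockout-labelled UMIs. These are 66.1 CPM (62.2 to 70.1) and 69.2 CPM (65.1 to 73.4). The next of the 6 classes was mesothelium, at 22.1 CPM (16.5 to 29.1) and 29.2 CPM (22.7 to 36.9), with no overlap with mesenchyme. Endothelium, at 21.4 CPM (7.86 to 46.6) and 17.0 CPM (6.22 to 36.9), overlapped mesothelium, and neural cells, outside the 6 classes, had 37.2 and 33.8 CPM. Tip (13.9 and 18.2 CPM), trunk (18.5 and 18.6 CPM) and the Neurog3 class (13.5 and 15.0 CPM) had lower values than mesothelium. Their intervals overlapped each other and those of mesothelium and endothelium. Mesenchyme held 83.1% and 82.6% of Fgfr1 UMIs. Fgfr1 was at 39.3 to 93.7 CPM in each of the 10 mesenchymal clusters, so no cluster lacked it. Its nearest genes over clusters were Angptl2 and Pcdh18 (both r = 0.97).

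Fgfr2 (chromosome 7, 130162451 to 130266808), the receptor that binds Fgf10 and Fgf7 in its b form, was the trunk receptor. The 3' counts do not separate the b and c forms. The GENCODE annotation of GRCm38, which may not be the one used for counting, extends the gene to 133123350, across Oat, Ate1 and others on the same strand and Tacc2 and others on the opposite one, and no source used here says how shared reads were counted. Control trunk cells had 291 UMIs, or 66.3 CPM (58.9 to 74.4), and knockout-labelled trunk cells had 144, or 63.8 CPM (53.8 to 75.1). The Neurog3 class followed with 27.0 CPM (18.9 to 37.4) and 34.4 CPM (21.8 to 51.7), and its intervals did not reach those of trunk. Tip cells had 12.7 CPM (9.18 to 17.1) and 15.5 CPM (11.6 to 20.3). Trunk was therefore above tip in both libraries by more than the counting intervals, and the same order stood after thinning, with 16.8% and 20.7% of trunk cells against 4.12% and 5.82% of tip cells. Errfi1, an inhibitor of the EGF receptor, and Akr1cl ran most like Fgfr2 over clusters (both r = 0.91).

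In the authors' deposited table of cluster genes, Fgfr2 was the only one of the 10 members listed. It appeared for the authors' cluster 1, led by BC048546, Tmem27, Scg3, Isl1 and Pcsk2, where a fraction of 0.034 of cells had it in the authors' deposited table. Isl1 and Pcsk2 are endocrine genes. In the data summed here, the endocrine cluster of the epithelium (77 control and 18 knockout-labelled cells) had 2 Fgfr2 UMIs in each library, or 3.0 and 14.2 CPM.

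Fgfr3, Fgfr4 and Fgfrl1 were also epithelial. Fgfr4 was at 22.8 and 17.7 CPM in trunk and Fgfr3 at 26.2 and 18.0 CPM in the Neurog3 class. Fgfrl1, which has no kinase domain, was at 23.0 and 28.8 CPM in trunk and at 9.75 and 22.5 CPM in the Neurog3 class (13 and 15 UMIs). That last difference was past 1.5-fold, in a class where 6.49% of 7754 genes were higher and 7.21% lower.

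**Figure D2:**
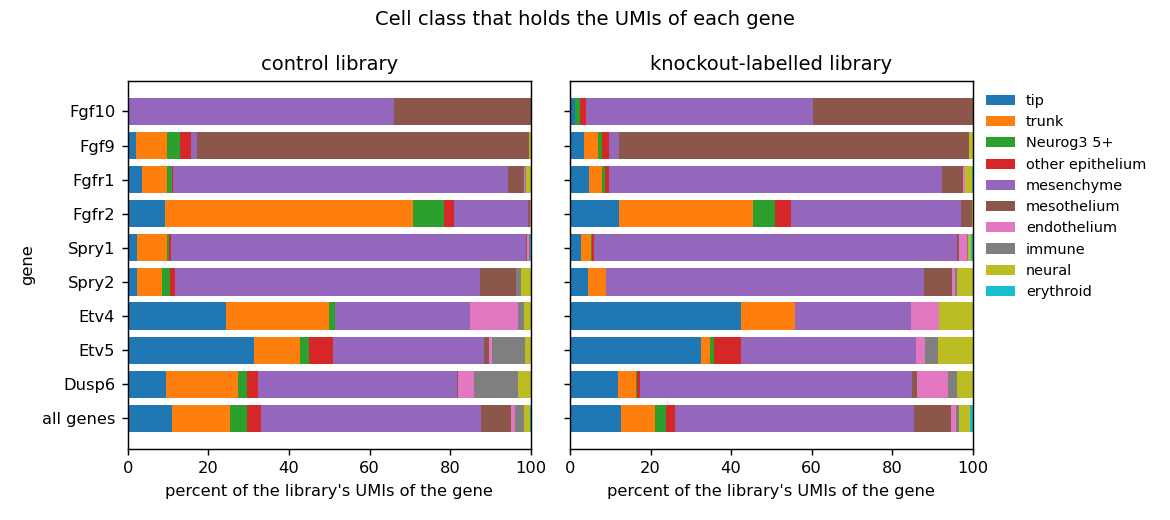
Percent of the UMIs of each gene (horizontal axis) that lay in each cell class, for the control library on the left and the knockout-labelled library on the right; the bar for all genes gives each class's share of the whole library. Fgf9 is mostly mesothelial and Fgfr1 and Spry1 mostly mesenchymal in both libraries, while Fgfr2 is 61.8% trunk among control cells and 33.3% among knockout-labelled cells. Fgf7 is left out for its 3 and 5 UMIs.

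The response genes did not follow a single class. Etv4 and Etv5 were sparse, Spry1 and Spry2 were mostly mesenchymal, and Dusp6 was highest, among the 6 classes, in endothelium. Etv5 (chromosome 16, 22381313 to 22439570) was highest in tip among the 6 classes, with 46 and 30 UMIs, or 13.6 CPM (9.93 to 18.1) and 8.79 CPM (5.93 to 12.5). Immune cells, outside the 6 classes, had 16.0 and 13.3 CPM from 12 and 3 UMIs, which overlap tip. Trunk had 17 and 2 Etv5 UMIs, or 3.88 CPM (2.26 to 6.20) and 0.886 CPM (0.107 to 3.20). In the control library the tip interval thus lay above the trunk interval, the reverse of Fgfr2. Etv4 (chromosome 11, 101769747 to 101785310) was at 4.72 and 7.33 CPM in tip and at 3.88 and 3.54 CPM in trunk, and these overlapped. Endothelium had the top value of Etv4, 28.6 CPM (12.3 to 56.3) and 11.3 CPM (3.08 to 29.0), from only 8 and 4 UMIs. Mesothelium had 0 UMIs of Etv4 in 506 cells, which allows up to 1.30 and 1.25 CPM.

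Mesothelium, the class with the most Fgf9, was low in most response genes. Spry1 had 2 and 3 UMIs there, Dusp6 3 and 9, Etv5 2 and 0 and Etv4 0 and 0. Spry2 was the exception, with 61 and 38 UMIs, or 26.5 CPM (20.2 to 34.0) and 15.8 CPM (11.2 to 21.7). Spry2 was also in mesenchyme, at 30.9 CPM (28.3 to 33.7) and 27.7 CPM (25.2 to 30.4), and lower in trunk (9.57 and 11.1 CPM) and tip (4.72 and 7.33 CPM). Outside the 6 classes, Spry2 was at 42.1 and 31.0 CPM in neural cells, which overlap mesenchyme. Within the mesenchyme it was concentrated in cluster 6 (led by Notch2, Spry2, Jag1 and Kdm6b), at 146 and 111 CPM, where 9.57% of mesenchyme cells held 32.7% of its mesenchymal UMIs. Spry2 was among the genes that formed that cluster, so this is a description. Cluster 6 had a median of 2.43% mitochondrial UMIs, within the range of the other mesenchymal clusters. Its median of 5357 UMIs per cell was near the lower end of theirs (5215.5 in cluster 10). Tip cluster 11 also had Spry2 and Jag1 among its leading genes. Dctn4 and Spin1 ran most like Spry2 (r = 0.85 and 0.82).

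Dusp6 (chromosome 10, 99263231 to 99267489) had 28 and 59 UMIs in the few endothelial cells, or 99.9 CPM (66.4 to 144) and 167 CPM (127 to 215). Outside the 6 classes, immune cells had 107 CPM (84.8 to 133) and 79.9 CPM (47.4 to 126), which overlap the endothelium, and neural cells had 54.5 and 40.8 CPM. Among the classes with epithelium or mesenchyme the order of trunk and mesenchyme changed between libraries. Tip overlapped both in the control library and mesenchyme in the knockout-labelled library, so its place against these is not resolved. In the control library trunk was highest (29.4 CPM, 24.6 to 34.9) and mesenchyme (21.2 CPM, 19.1 to 23.6) and tip (20.3 CPM, 15.8 to 25.8) followed. In the knockout-labelled library mesenchyme was highest (32.6 CPM, 29.8 to 35.5), tip second (26.7 CPM, 21.5 to 32.7) and trunk lowest of these 3 (15.1 CPM, 10.4 to 21.1). Pea15a, which holds ERK in the cytoplasm, and Kitl were nearest to Dusp6 over clusters (r = 0.82 and 0.79).

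**Figure D3:**
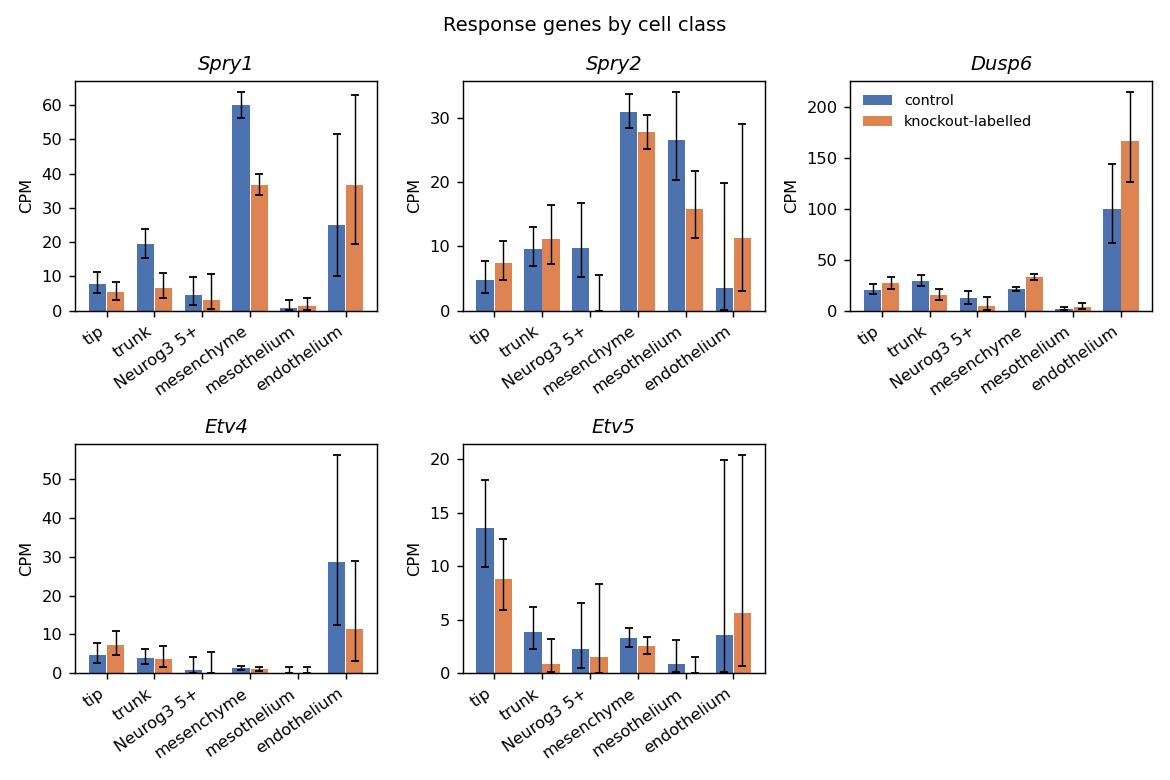
Level of the 5 response genes in CPM (vertical axes, each with its own scale) by cell class (horizontal axes) in the control and knockout-labelled libraries, with exact 95% Poisson intervals as whiskers. Spry1 is highest in mesenchyme in the control library, where the trunk bar is also above that of the knockout-labelled library, and Dusp6 is highest in endothelium in both.

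Between the libraries, the feedback inhibitors Spry1 and Dusp6 were lower in knockout-labelled trunk cells, while the trunk receptor Fgfr2 differed by less than its counting interval. A difference was called where the log2 ratio of (CPM + 5) in the knockout-labelled library over control passed 1.5-fold and the class held at least 20 UMIs of the gene over both libraries. Of 60 pairs of a member and a class, 30 could be assessed, and 2 were higher and 4 lower. Over all genes, the share higher ran from 0.509% in mesenchyme to 11.6% in endothelium. The share lower ran from 0.838% to 10.4% in the same classes, so the pooled count has no single background. Control trunk cells had 85 Spry1 UMIs (19.4 CPM, 15.5 to 24.0) and knockout-labelled trunk cells had 15 (6.65 CPM, 3.72 to 11.0), and the intervals did not overlap. The log2 ratio of Spry1 was -1.07, and the ratio of the 2 rates was 0.343 (0.184 to 0.598). Dusp6 had 129 and 34 UMIs, with a log2 ratio of -0.78 and a ratio of rates of 0.512 (0.340 to 0.752), again without overlap. In trunk 2 of 7 assessed members were lower and 0 higher, where 1.86% of 10326 genes were lower and 2.31% higher. Both genes were lower in all 4 trunk clusters, as were 8.50% of the genes assessed.

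The other 5 members assessed in trunk were under the fold. Fgf9 had a ratio of rates of 0.707 (0.272 to 1.65), Fgfr2 of 0.962 (0.782 to 1.18), Fgfr1 of 1.01 (0.677 to 1.48), Spry2 of 1.16 (0.676 to 1.94) and Etv4 of 0.915 (0.342 to 2.24). Etv5, with 19 UMIs in all, was under the count minimum, and its ratio of rates was 0.229 (0.0256 to 0.963). In the Neurog3 class, Dusp6 had 16 and 3 UMIs and Spry2 had 13 and 0 UMIs, where 0 counts allow up to 4.49 CPM against 9.75 CPM in the control library. There, 2 members could be assessed and 0 were called among these genes.

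Markers of other cells in the trunk were given beside these values. The 13 tip markers summed to 1164 and 491 CPM in trunk, and the 14 mesenchyme markers, of which 12 were detected, to 39.7 and 38.5 CPM. Genes that dissociation can induce summed to 2804 and 2588 CPM in trunk, with 6 of 15 higher in the knockout-labelled library. The part of these in the trunk differences was not tested. With the trunk clusters set to equal shares, chosen after seeing the data, the log2 ratios were -0.97 for Spry1 and -0.71 for Dusp6.

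The bases upstream of the starts of these 2 genes, which were lower together in trunk, are shown because their products brake the same ERK route and ETS factors are its targets. Both lie on the plus strand (RefSeq, GRCm38.p6) and capitals mark the ETS core letters GGAA on either strand.

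Spry1: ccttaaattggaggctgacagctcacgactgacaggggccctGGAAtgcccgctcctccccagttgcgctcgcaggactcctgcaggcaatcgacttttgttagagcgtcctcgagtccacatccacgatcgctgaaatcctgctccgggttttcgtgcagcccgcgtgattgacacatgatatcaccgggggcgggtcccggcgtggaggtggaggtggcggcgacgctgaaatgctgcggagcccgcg

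Dusp6: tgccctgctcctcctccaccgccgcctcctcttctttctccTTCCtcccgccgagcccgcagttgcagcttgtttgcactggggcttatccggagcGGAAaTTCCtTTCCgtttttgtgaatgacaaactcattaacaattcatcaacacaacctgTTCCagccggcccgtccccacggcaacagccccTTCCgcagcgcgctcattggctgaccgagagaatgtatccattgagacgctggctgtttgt

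The Spry1 window (chr3:37639697-37639946) held 1 match of GGAA or its reverse complement TTCC and the Dusp6 window (chr10:99262981-99263230) held 6, with a pair of them adjoining in GGAAaTTCC. The core is common: 93.4% of 32851 windows of this length hold at least 1. The longer form CCGGAA on either strand was in 3952 of the 32851 windows and in 0 of the 9 found for 8 members. A match of letters is not a bound site.

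Tip cells showed no member past the fold. Dusp6 there had 69 and 91 UMIs, a log2 ratio of 0.32, and Spry1 26 and 18, a log2 ratio of -0.30. Etv5 had the largest difference in tip, with a log2 ratio of -0.43 and a ratio of rates of 0.648 (0.395 to 1.05). All 7 members assessed in tip stayed under 1.5-fold, where 3.49% of 9829 genes were higher and 2.57% lower. The difference between tip and trunk in the ratio of Dusp6 was not tested, since there is 1 library per condition.

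**Figure D4:**
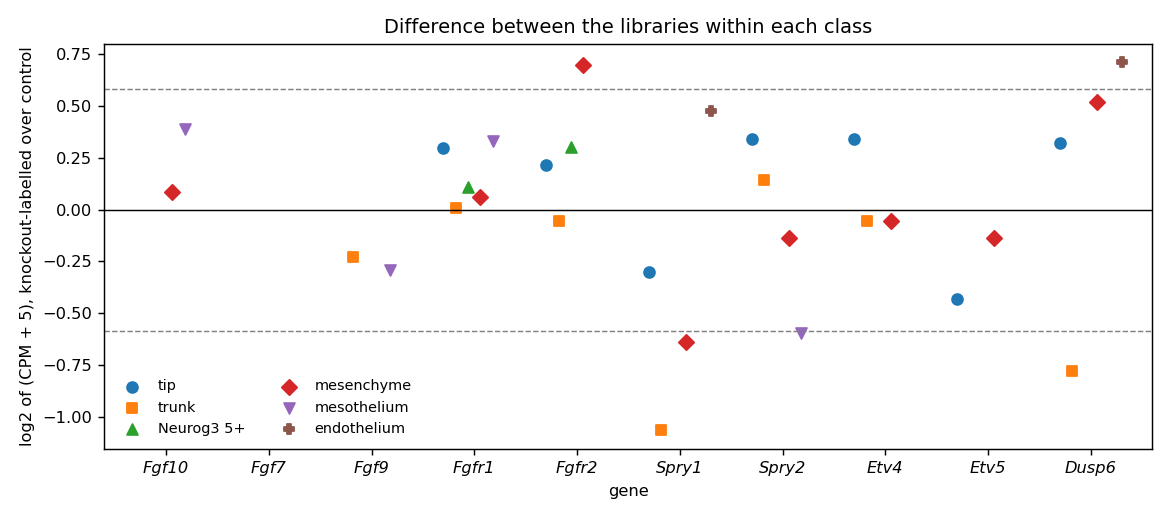
Log2 ratio of (CPM + 5) in the knockout-labelled over the control library (vertical axis) for each member (horizontal axis), 1 point for each class with at least 20 UMIs of the gene; dashed lines mark 1.5-fold. Spry1 and Dusp6 in trunk, Spry1 in mesenchyme and Spry2 in mesothelium lie below the lower line, and Fgfr2 in mesenchyme and Dusp6 in endothelium above the upper one.

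The mesenchyme had less Spry1 and more Fgfr2. Spry1 (chromosome 3, 37639947 to 37644599) had 1009 UMIs in 2581 control cells and 585 in 2091 knockout-labelled cells, which is 60.0 CPM (56.4 to 63.9) and 36.8 CPM (33.9 to 39.9). Endothelium, the next class, had 7 and 13 UMIs (36.8 CPM, 19.6 to 62.8, for the latter), so in the knockout-labelled library these classes were level. In mesenchyme the log2 ratio was -0.64 and the ratio of rates 0.613 (0.553 to 0.680). After thinning, 15.8% (14.4 to 17.2) of control cells and 10.3% (9.04 to 11.7) of knockout-labelled cells had a Spry1 UMI. Spry1 was lower in all 10 mesenchymal clusters, as were 1.26% of 12776 genes assessed. The control clusters ran from 27.4 CPM in cluster 4 (Cxcl13 and Plac8 among its leading genes) to 82.2 CPM in cluster 9 (led by cell division genes). The same 2 clusters were the lowest and the highest in the knockout-labelled library, at 12.4 and 59.4 CPM. Smad5 and Tmem100, both tied to BMP signalling, ran most like Spry1 over clusters (r = 0.92 and 0.90).

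Fgfr2 was low in mesenchyme but differed by more. As the long annotated span overlaps other genes, this small count is uncertain. It had 87 UMIs in control cells and 183 in knockout-labelled cells, or 5.18 CPM (4.15 to 6.39) and 11.5 CPM (9.91 to 13.3). The log2 ratio was 0.70 and the ratio of rates 2.22 (1.71 to 2.91). It was higher in 8 of the 10 clusters and lower in clusters 4 and 13, and cluster 4 had 9 and 0 UMIs. The share of all genes higher in as many clusters is not given. The 9 epithelial markers summed to 32.5 and 28.1 CPM in mesenchyme and the 13 tip markers to 89.8 and 63.3 CPM. The part of epithelial transcripts in the Fgfr2 difference was not tested. Mesenchyme held 18.5% of Fgfr2 UMIs among control cells and 42.3% among knockout-labelled cells, where trunk cells were also fewer.

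In mesenchyme 1 of 8 assessed members was higher and 1 lower, where 0.509% and 0.838% of genes were. Dusp6 was at 21.2 and 32.6 CPM, a ratio of rates of 1.53 (1.34 to 1.76), but its log2 ratio of 0.52 did not pass 1.5-fold on the (CPM + 5) scale. It was higher in 9 of 10 clusters, and the share of all genes higher in as many is not given. Spry1 and Dusp6, lower together in trunk, thus had ratios on opposite sides of 1 in mesenchyme. Fgfr1 (ratio of rates 1.05, 0.962 to 1.14), Spry2 (0.895, 0.786 to 1.02) and Fgf10 (1.19, 0.758 to 1.89) were nearer to 1. Without the 3 uneven clusters, a choice made after seeing the data, the log2 ratio of Spry1 was -0.59 and that of Fgfr2 was 0.78. Dissociation genes summed to 4260 and 3737 CPM in mesenchyme, with 5 of 15 higher in the knockout-labelled library, and their part in the Spry1 difference was not tested.

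**Figure D5:**
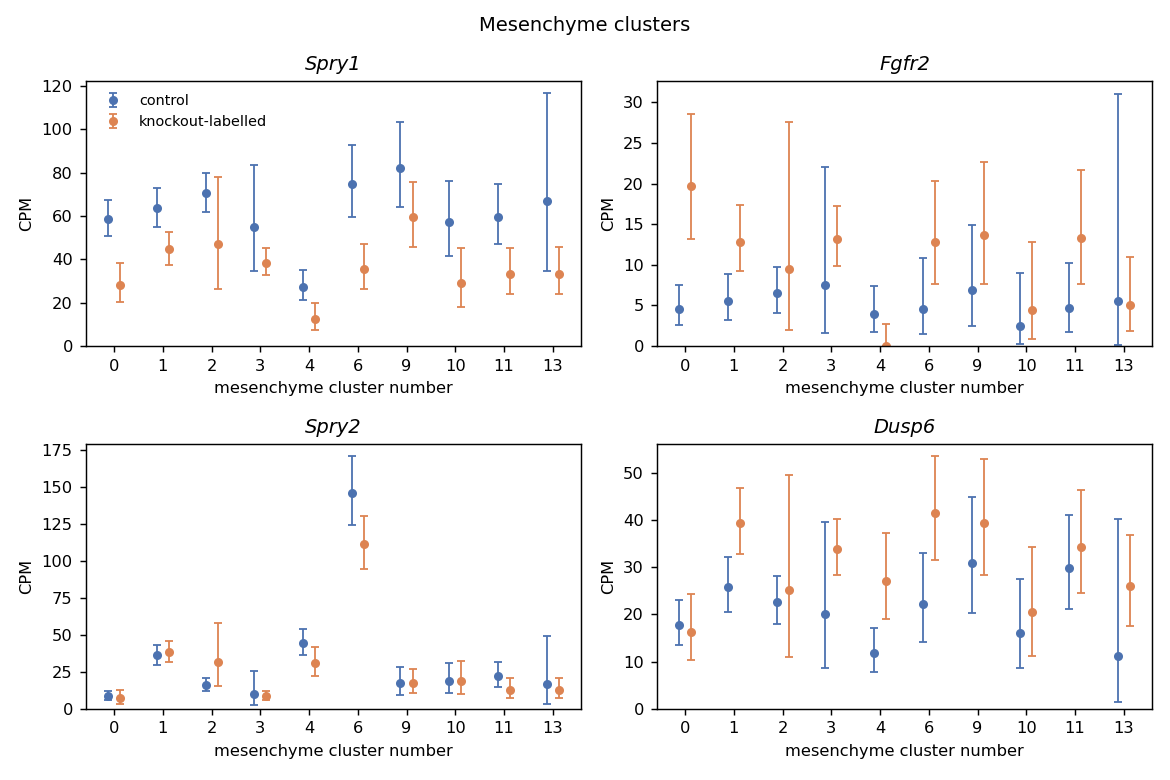
Level of Spry1, Fgfr2, Spry2 and Dusp6 in CPM (vertical axes, each with its own scale) in each of the 10 mesenchymal clusters (horizontal axes), with exact 95% Poisson intervals. Spry1 is lower in the knockout-labelled library in all 10 clusters, Dusp6 is higher in 9, and Spry2 peaks in cluster 6.

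In mesothelium 1 of 4 assessed members was lower and 0 higher, where 3.62% and 2.85% of 9874 genes were. This was Spry2 (chromosome 14, 105891947 to 105896819), with a log2 ratio of -0.59 and a ratio of rates of 0.599 (0.388 to 0.912), just past the fold. It stayed past the fold in 9 of 16 alternatives and ran from -0.71 to -0.37 on the log2 scale. Among the alternatives, those of the Neurog3 minimum do not touch mesothelium and could not move it. The mesenchyme markers summed to 1691 and 1667 CPM in mesothelium. Fgf10 in mesothelium had a ratio of rates of 1.49 (0.822 to 2.76) and Fgfr1 of 1.32 (0.906 to 1.93). In endothelium Dusp6 was higher, with a log2 ratio of 0.71 and a ratio of rates of 1.67 (1.05 to 2.72), and 25 of 32 knockout-labelled cells had a UMI against 19 of 27 control cells. Immune markers, whose cells also have much Dusp6, summed to 28.6 and 19.8 CPM in endothelium with 5 of 12 detected. In endothelium 1 of 2 assessed members was higher and 0 lower, where 11.6% and 10.4% of 3718 genes were, so calls were common in this small class.

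The wider FGF list of 91 genes places these differences by role. In trunk, 56 of its genes could be assessed, and 2 were higher and 5 lower, where 2.31% and 1.86% of all genes were. The median log2 ratio was -0.03 against 0.02 over all genes. The 5 were Spry1, Dusp6, Ier3, Myc and Hs6st2. Ier3, an immediate target of ERK, was at 42.2 and 14.2 CPM (log2 ratio -1.30), Myc at 10.5 and 4.87 CPM, and Hs6st2, which adds sulfate to heparan chains, at 9.12 and 2.66 CPM. The 2 higher genes were the adaptors Grb2 (10.3 and 18.2 CPM) and Sos2 (13.5 and 27.5 CPM), which link receptors to Ras. Each of the 5 receptors stayed under the fold. Among the most abundant genes of the list, Fos was at 514 and 506 CPM in trunk, Sox9 at 462 and 525 CPM, Ccnd1 at 401 and 291 CPM and Egr1 at 296 and 237 CPM, all under the fold.

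In mesenchyme 66 could be assessed, of which 1 was higher (Fgfr2) and 3 lower (Spry1, Ier3 and Phlda1), where 0.509% and 0.838% of all genes were, with a median log2 ratio of -0.08 against -0.01. Ier3 was at 41.4 and 21.5 CPM and Phlda1, another target of ERK, at 62.8 and 36.4 CPM. The heparan sulfate carrier Gpc3 (693 and 820 CPM), the kinase Nras (156 and 162 CPM) and the inhibitor Spred1 (40.5 and 36.2 CPM) were under the fold. Ier3 was also lower in the Neurog3 class (33.7 and 19.5 CPM) and in mesothelium (33.0 and 18.8 CPM), so it passed the fold downwards in 4 of the 6 classes. In tip it had 16 and 10 UMIs, at 4.72 and 2.93 CPM, and did not. The share of all genes lower in as many classes is not given. Dissociation genes summed to 2389 and 1892 CPM in the Neurog3 class, with 1 of 15 higher in the knockout-labelled library. In mesothelium they summed to 2070 and 2295 CPM, with 11 of 15 higher. Their part in the Ier3 differences was not tested.

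In the Neurog3 class 41 could be assessed, and 5 were higher and 4 lower, where 6.49% and 7.21% of all genes were, so the lower count was near that of all genes. Etv1, an ETS factor of the same family as Etv4 and Etv5, was at 28.5 and 5.99 CPM, from 38 and 4 UMIs (log2 ratio -1.61). In the authors' deposited table Etv1 was listed for the endocrine cluster 1, with a fraction of 0.602 of its cells, and the 13 endocrine markers summed to 2401 and 1236 CPM in the Neurog3 class. The part of this in the Etv1 difference was not tested. Ext2 and Gpc1 were the other lower genes beside Ier3, and Flrt2, Gab1, Hras, Sox9 and Fgfrl1 the higher ones. Sox9 was at 79.5 and 151 CPM. Of the Neurog3 class, 21 of 144 control cells and 17 of 61 knockout-labelled cells lay in trunk clusters. The part of this in the Sox9 and Fgfrl1 differences was not tested.

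In mesothelium 54 could be assessed, and 2 were higher and 4 lower, where 2.85% and 3.62% of all genes were, so the higher count was near that of all genes. Il17rd, an FGF receptor antagonist, was at 33.4 and 17.9 CPM, and Etv1 at 9.98 and 4.17 CPM, which with Spry2 and Ier3 makes up the lower group. Flrt3, a membrane protein that binds FGF receptors, was higher at 55.1 and 89.6 CPM, and the sulfatase Sulf2 at 23.0 and 47.9 CPM. In tip 56 could be assessed, with 4 higher and 0 lower, where 3.49% and 2.57% of all genes were. They were Ptf1a (59.9 and 125 CPM), Hs6st1, Hspg2 and Sdc2, while the summed tip markers went from 12396 to 7669 CPM. Without tip clusters 7 and 11, the former led by Ptf1a among other genes, Ptf1a was at 60.2 and 123 CPM (log2 ratio 0.97). In endothelium 17 could be assessed, with 3 higher (Ccnd1, Flrt2 and Dusp6) and 3 lower (Shc1 and Phlda1 among them), where 11.6% and 10.4% of all genes were. Ccnd1 was at 228 and 452 CPM.

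Within single cells, receptor and response transcripts were rarely seen together, at a depth of 3000 UMIs per cell. Of 53 control trunk cells with an Fgfr2 UMI, 2 also had Spry1 (3.77%, 0.460 to 13.0), against 19 of 262 without one (7.25%, 4.42 to 11.1). For Dusp6 in the same cells it was 3 of 53 against 21 of 262. In control mesenchyme, 78 of 456 cells with Fgfr1 had Spry1 (17.1%, 13.8 to 20.9), against 324 of 2096 without (15.5%, 13.9 to 17.1). In each of these the intervals overlapped, so no link or lack of one between receptor and response within a cell can be read from them.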

How the data were processed

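Pancreata of 1 embryo per condition were digested, live cells were sorted and 10x Chromium 3' version 2 libraries were made for a target of 5000 cells, per the labels' protocols. The deposited matrices are raw UMI counts. Cell Ranger and the build GRCm38 are named in the submitters' processing notes, as are Seurat 2 and Seurat 3. The sources used here do not give the Cell Ranger version, annotation or strand setting. GENCODE overlaps Fgf10, Fgf7, Fgf9, Fgfr1, Fgfr2 and Spry1 with genes on the opposite strand, and Fgfr2 also with genes on its own strand. The authors' deposited table of cluster genes gives the fraction of cells with a UMI, per the file headers.

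Cells were kept with at least 500 genes, 1000 UMIs and at most 10% mitochondrial UMIs (29 and 32 barcodes removed), and the highest doublet scores were removed (122 and 74 cells). Cells were clustered with scanpy 1.11.5 and leidenalg 0.10.2 (2000 genes, 30 components, 15 neighbours, resolution 1.0), and clusters were named from marker lists. UMIs were summed per class and library into CPM over all genes. A floor of 3 counts sets the limit for 0 UMIs. The interval of the ratio of rates was tried on simulated Poisson counts, the model it assumes. The intervals of levels and shares, and counts that clump within cells, were not tried. Named are the 10 members, the list genes past 1.5-fold and the 3 most abundant of each role, and the 2 genes nearest to each member with at least 50 CPM in a cluster. The members and lists were chosen with earlier results of these data known. Alternatives covered filters, clustering, the Neurog3 minimum, scaling, pseudocounts and thinning. RefSeq gave coordinates and upstream bases for 8 members. Some genes are not named or reported here.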

Additional observations from a re-analysis of the deposited data

Results flagged for a closer look

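Dusp6 passed 1.5-fold in opposite directions in different classes, with a log2 ratio of (CPM + 5) in the knockout-labelled library over control of 0.711 in endothelium and -0.778 in trunk. The difference between the classes was not tested, since there is 1 library per condition. Endothelium rests on 27 and 32 cells, where 11.6% of genes were higher, and trunk on 317 and 164 cells, where 1.86% were lower.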

How the results depend on the processing

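No paired analysis was possible because each condition is 1 library, and no replicate could be left out. The 6 differences past 1.5-fold kept their sign under each of 16 to 18 alternatives, but some of these could not change it. The Neurog3 minimum leaves mesenchyme, mesothelium and endothelium as they were. Leaving out the uneven tip clusters leaves trunk as it was, and a pseudocount cannot turn a sign. Spry1 in trunk ran from -1.41 to -0.56 on the log2 scale and Dusp6 in trunk from -0.92 to -0.49, each under 1.5-fold only with a pseudocount of 20 CPM. Dusp6 in endothelium (0.59 to 0.87) stayed past it. Spry1 in mesenchyme ran from -0.69 to -0.49 and Fgfr2 there from 0.32 to 1.02. Spry2 in mesothelium (-0.71 to -0.37) was past 1.5-fold in 9 of 16. With a pseudocount of 20 CPM 1 pair of member and class passed in place of 6, and 10 pairs of the FGF list in place of 36, the log2 ratio of Fgfr2 in mesenchyme was 0.32 and that of Spry1 -0.49. With a pseudocount of 1 CPM that of Fgfr2 was 1.02. A minimum of 1 UMI gave 73 list pairs and one of 100 UMIs gave 16. A total without haemoglobin, mitochondrial and ribosomal protein genes raised levels by construction, to 155 and 128 CPM for Fgf9 in mesothelium, 103 and 109 CPM for Fgfr1 in mesenchyme and 102 and 97.6 CPM for Fgfr2 in trunk. Fgfr2 in knockout-labelled trunk was 81.3 CPM after thinning to 3000 UMIs, and the cause was not tested. The share of mesothelial cells with Fgf9 was 53.1% and 50.0% without thinning, 40.5% and 26.8% at 5000 UMIs, and, thinned to 3000 UMIs, 2.79% and 6.10% with at least 2 UMIs, where the order of the libraries turned. With each class weighted to the same number of cells, mesothelium held 77.3% of Fgf9 in the knockout-labelled library. The main values were the 6 differences, the top levels of Fgf9, Fgfr1 and Fgfr2, the Fgf9 shares and the counts. Of their checks over the alternatives, 195 stayed within the counting interval (within 1.5-fold for counts) and 21 did not. Of the checks of other values, 573 stayed within the interval and 63 did not. Depth limits what can be said of Fgf7, Fgf10, Etv4 and Etv5, which had the fewest UMIs.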
